A study of Homo sapiens with 6 samples.

Results

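Intergenic H3K4me3 peaks are described here: peaks of the histone mark H3K4me3 with a fold enrichment of at least 4, on chromosomes 1 to 22 and X, that lie more than 10 kb from every RefSeq protein-coding gene of GRCh38. The OTX2high list held 4190 such peaks among 33201 and the OTX2low list 3445 among 28824. Overlapping peaks of both lists were joined into 4830 intergenic regions, of 28033 regions that passed the same fold minimum anywhere on these chromosomes. Members were thus chosen by their own H3K4me3 fold enrichment, so peak strength and the difference in H3K4me3 between conditions are given as descriptions. At the threshold, the weakest members had a fold enrichment of 4.00 in either list, and the strongest intergenic peaks left out had 3.998 in OTX2high and 3.98 in OTX2low. Between 4 and 4.5 lay 486 OTX2high and 426 OTX2low members, and 742 and 414 intergenic peaks lay between 3.5 and 4.

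The cells were D283, an established human Group 3 medulloblastoma line, grown as tumorspheres in serum-free neural precursor medium with growth factors. The OTX2low cells received 30 nM of siRNA against OTX2, a homeobox transcription factor that drives this tumour subgroup, and the OTX2high cells received a non-silencing scramble siRNA. Each condition had 1 H3K4me3 library, 1 library of the Polycomb mark H3K27me3 and 1 IgG control, all from 1 cell line, so no difference between conditions has a replicate check. The H3K4me3 libraries held 33137731 tags after filtering in OTX2high and 20914582 in OTX2low. The sample labels and the file headers name opposite conditions for both H3K27me3 lists, and for this reason these lists are called by their sample label only. The IgG libraries also carry conflicting names and were put in no group. An H3K4me3 peak was present in both conditions at 7 of 8 Group 3 marker genes, among them OTX2, CRX and NRL, and at 2 of 10 genes that mark other cell types (COL1A1 and MYOD1).

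H3K4me3 is laid down at transcription start sites by SET1 and MLL methyltransferase complexes, which bind unmethylated CG-rich DNA. Away from protein-coding genes it marks the starts of long non-coding RNAs (lncRNAs), of the primary transcripts that carry microRNAs, and of transcribed pseudogenes, and it also surrounds genes read by RNA polymerase III such as those for tRNAs. At weak levels it is found at active enhancers. OTX2 belongs to the bicoid-type homeodomain proteins, which bind the core sequence TAATCC. Where H3K4me3 and H3K27me3 lie on the same stretch, the state is called bivalent.

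The regions at microRNA genes are shown first, since members lay at the host transcripts of all 3 miR-9 genes. The microRNA miR-9 is abundant in the developing brain and promotes neuronal differentiation. Members also lay at the hairpins of MIR9-1 and MIR9-3, and MIR9-2 had none. Members lay at 60 microRNA genes, of which 49 matched an entry of the RefSeq table for GRCh38.p14. The mature sequences below come from that table, written 5′ to 3′ with the seed (bases 2 to 8, which pair with target RNAs) in capitals. Both arms of miR-9 are encoded at MIR9-1 (chromosome 1) and MIR9-3 (chromosome 15).
hsa-miR-9-5p: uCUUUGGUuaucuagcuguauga
hsa-miR-9-3p: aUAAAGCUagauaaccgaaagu
The transcript MIR17HG on chromosome 13 carries 6 microRNAs, and among them miR-17-5p and miR-20a-5p share one seed while miR-19a-3p and miR-19b-3p share another.
hsa-miR-17-5p: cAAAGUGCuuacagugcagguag
hsa-miR-20a-5p: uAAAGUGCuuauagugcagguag
hsa-miR-19a-3p: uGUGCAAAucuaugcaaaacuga
hsa-miR-19b-3p: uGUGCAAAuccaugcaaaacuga
hsa-miR-18a-5p: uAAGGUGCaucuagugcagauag
hsa-miR-92a-3p: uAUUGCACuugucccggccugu
Shared seeds also joined members on different chromosomes, namely miR-193a-3p (chromosome 17) with miR-193b-3p (chromosome 16), and let-7c-5p (chromosome 21) with miR-4458 (chromosome 5).
hsa-miR-193a-3p: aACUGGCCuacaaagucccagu
hsa-miR-193b-3p: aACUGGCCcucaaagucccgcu
hsa-let-7c-5p: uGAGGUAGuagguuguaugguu
hsa-miR-4458: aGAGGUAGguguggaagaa

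The start regions printed here for the 3 miR-9 host transcripts differ in base composition. Each is printed from 250 bases before to 50 bases after a RefSeq start, on the gene's own strand in GRCh38.p14, with CG dinucleotides and any TAATCC (or GGATTA, its reverse complement) in capitals. The MIR9-1HG start lies at chr1:156421720-156422019 on the minus strand and holds 24 CG dinucleotides. The MIR9-2HG start lies at chr5:88684776-88685075 on the minus strand and holds 7 CG dinucleotides and 1 TAATCC. Other RefSeq starts of MIR9-2HG touched by members, not printed, hold 8 and 18 CG dinucleotides. The MIR9-3HG start lies at chr15:89362259-89362558 on the plus strand and holds 31 CG dinucleotides.
MIR9-1HG: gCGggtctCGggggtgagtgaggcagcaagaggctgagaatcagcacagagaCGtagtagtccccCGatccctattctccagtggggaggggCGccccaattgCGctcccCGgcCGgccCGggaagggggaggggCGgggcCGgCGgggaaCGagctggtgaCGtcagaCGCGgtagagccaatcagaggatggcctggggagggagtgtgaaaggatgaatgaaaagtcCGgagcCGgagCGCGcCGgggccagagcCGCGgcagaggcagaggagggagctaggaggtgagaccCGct
MIR9-2HG: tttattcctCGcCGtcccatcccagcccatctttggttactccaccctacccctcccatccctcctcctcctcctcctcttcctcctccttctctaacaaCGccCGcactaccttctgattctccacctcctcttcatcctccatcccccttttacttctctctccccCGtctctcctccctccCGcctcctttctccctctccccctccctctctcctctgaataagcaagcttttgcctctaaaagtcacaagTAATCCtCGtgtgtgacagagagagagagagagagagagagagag
MIR9-3HG: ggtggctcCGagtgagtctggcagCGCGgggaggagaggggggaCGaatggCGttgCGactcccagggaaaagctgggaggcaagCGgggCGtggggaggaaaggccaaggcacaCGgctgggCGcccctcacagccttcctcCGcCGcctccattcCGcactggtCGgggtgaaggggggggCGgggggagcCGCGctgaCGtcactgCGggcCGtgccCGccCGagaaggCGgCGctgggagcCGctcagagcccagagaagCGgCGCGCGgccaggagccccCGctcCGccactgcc

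H3K4me3 was higher in the OTX2low library at parts of all 3 miR-9 loci, and no member there was called higher in OTX2high. Differences between conditions are those of the authors' deposited table, a G-test of 1 OTX2high against 1 OTX2low library with reads scaled per library. Reads below are these scaled reads over the differential region that touches a member, whose ends can differ from the member's, and each log2 ratio (OTX2high over OTX2low) carries an exact conditional 95% interval computed from the whole reads behind them, which covers counting error only. At MIR9-1HG (chr1:156404252-156429548), the authors' deposited table has 932.5 OTX2high and 2011 OTX2low reads over chr1:156413801-156420700, a log2 ratio of -1.11 (-1.22 to -0.999). This stretch covers the MIR9-1 hairpin and the transcript downstream of the printed start, and it ends before that start. The main peak region, chr1:156415946-156422626, was 6681 bp wide in OTX2low, while the 2 OTX2high peaks in it covered 4721 bp. Its highest fold enrichment over IgG was 59.1 in OTX2high and 51.0 in OTX2low, so the peak was wider in the OTX2low list without a higher fold enrichment. On the gene's minus strand, chr1:156425701-156430000 lies upstream of the printed start and covers the outer 5′ end of the gene, and there the authors' deposited table has 40.7 OTX2high and 208.1 OTX2low reads, a log2 ratio of -2.35 (-2.84 to -1.89). In all, 6 of the 7 intergenic regions at MIR9-1HG were called higher in OTX2low, where the share over all 28033 regions was 5.38%. These 6 lay in 2 differential regions and are not separate observations. Only 2 of them had peaks in both lists, and the others were members through the OTX2low list alone.

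At MIR9-3HG (chr15:89361579-89398488), the host start printed above and the region over the MIR9-3 hairpin both had more H3K4me3 in OTX2low. In the authors' deposited table the start had 63.8 OTX2high and 126.6 OTX2low reads, a log2 ratio of -0.99 (-1.43 to -0.55). The hairpin region, chr15:89367338-89368825, had 107.7 and 307.1 reads in the authors' deposited table, a log2 ratio of -1.51 (-1.83 to -1.2). Its fold enrichment over IgG was 11.4 in OTX2high and 28.3 in OTX2low. The other 3 regions of this locus were in no differential region.

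MIR9-2HG (chr5:88538266-88691041) had 1 called region, the one over the printed start, with 130.8 OTX2high and 260.7 OTX2low reads in the authors' deposited table, a log2 ratio of -0.99 (-1.30 to -0.69). The other 6 regions of that locus, with fold enrichments up to 29.2 in OTX2high and 25.8 in OTX2low, were in no differential region. H3K27me3 peaks of both lists overlapped 3 of the 7 regions at MIR9-2HG and 2 of the 5 at MIR9-3HG, but 0 of the 7 at MIR9-1HG. All 3 loci were on a list of microRNA genes chosen with earlier results of these data known.

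**Figure D1:**
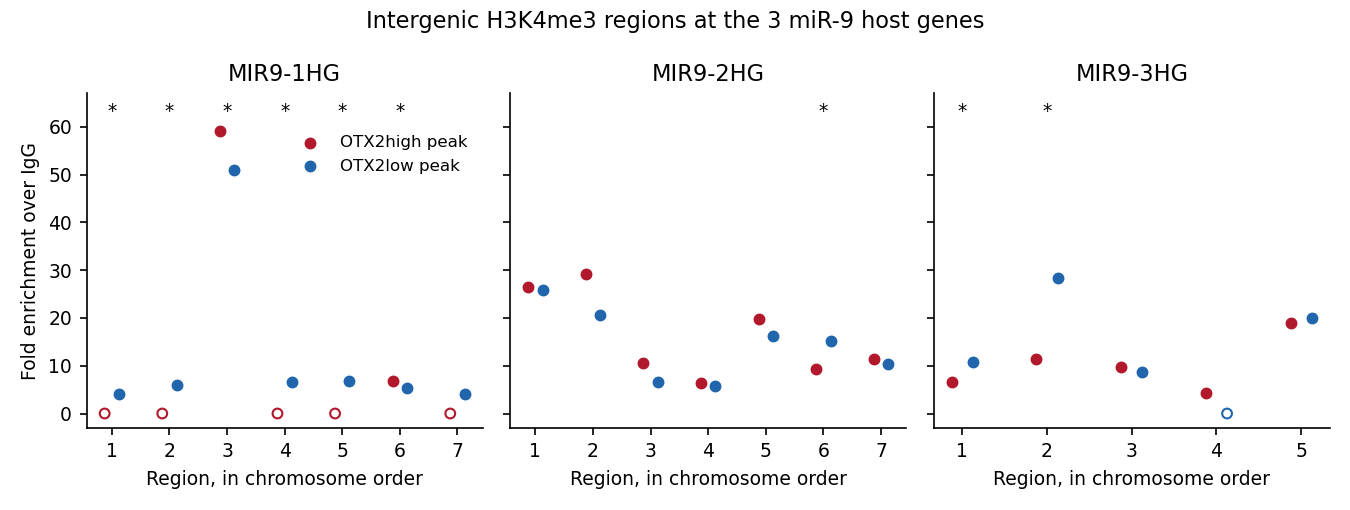
Each panel plots, in chromosome order, the fold enrichment over IgG of the strongest OTX2high (red) and OTX2low (blue) peak in every intergenic region at one miR-9 host gene. Open circles at 0 mean that the list has no peak there, and asterisks mark regions in a differential region higher in OTX2low. The largest gap is at the MIR9-3 hairpin, region 2 of MIR9-3HG, with 11.4 in OTX2high and 28.3 in OTX2low.

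Other microRNA loci were called higher in OTX2high, in both directions or not at all. MIR17HG, which encodes a proliferation-linked microRNA cluster, lay in 1 region of 7101 bp, covered by 1 OTX2high peak and over 5942 bp by 2 OTX2low peaks (chr13:91346572-91353672), with fold enrichments of 40.2 and 38.2. Over the microRNA hairpins, the authors' deposited table has 1762 OTX2high and 1037 OTX2low reads, a log2 ratio of 0.77 (0.65 to 0.88). Just upstream, over chr13:91347101-91349400, the authors' deposited table has 762.6 and 989.1 reads, a log2 ratio of -0.38. A region within 2000 bp of MIR99A and MIRLET7C, but not over them (chr21:16536211-16537947), had 128.4 OTX2high and 72.7 OTX2low reads. The log2 ratio there was 0.82 (0.38 to 1.28) in the authors' deposited table. MIR34AHG, host of the p53-induced miR-34a, had 1104 and 619.3 reads, a log2 ratio of 0.83 (0.68 to 0.99) in the authors' deposited table. MIR193B had a log2 ratio of 0.72 (0.42 to 1.01) in the authors' deposited table. MIR193A, which shares its seed, lay in no differential region although its fold enrichments were 51.8 and 37.7. MIR181A1HG (38.8 and 24.2), MIR7-3HG (9.64 and 10.8), MIR222HG (18.7 and 10.8) and MIR148A (20.8 and 19.6) were in no differential region either, with the OTX2high fold enrichment first. MIR124-3 (9.04 and 10.4) could not be called, since it lies beyond the last differential region of chromosome 20.

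At an end of a microRNA gene lay 59 intergenic regions, of which 8 were called higher in OTX2high, 18 higher in OTX2low and 1 in both directions. For all 28033 regions the shares called were 38.2% higher in OTX2high and 5.38% higher in OTX2low. Many of these 59 are copies of near-identical sequence, where reads cannot be assigned to 1 copy with certainty: the MIR3180 and MIR1302 copies, and the MIR6724, MIR3648 and MIR10396 copies in ribosomal DNA. Without the clusters described further below and without the first 10 Mb of chromosome 21, 8 of 48 were higher in OTX2high and 8 in OTX2low. The latter 8 still include the 3 MIR3180 copies and the copies MIR1302-2, MIR1302-3 and MIR1302-10. The MIR9-1 region was left out with its cluster. The authors' deposited table gives the 3 MIR3180 copies log2 ratios of -0.50, -0.48 and -0.56.

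The intergenic peaks were narrower and weaker than the peaks within 10 kb of a protein-coding gene. Their median width was 613 bp in OTX2high and 513 bp in OTX2low, against 1676 and 1511 bp near genes, and their median fold enrichment was 7.49 and 7.24, against 28.02 and 23.3. A fold enrichment of at least 20 was reached by 896 OTX2high members (21.4%) and 625 OTX2low members (18.1%), against 58.0% and 55.0% near genes. With a fold minimum of 8 the median widths of intergenic peaks were 1202.5 and 1097.5 bp. Together the members covered 4.07 Mb in OTX2high and 2.89 Mb in OTX2low. The median distance of a merged region to the nearest protein-coding gene was 52.5 kb, 1591 regions (32.9%) lay more than 100 kb away, and the farthest lay 4899 kb away.

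Of the 6 strongest intergenic regions, 4 touched a pseudogene. The 6 highest fold enrichments were found at WASH8P on chromosome 12 (76.6 in OTX2high and 79.4 in OTX2low), at SUZ12P1, a pseudogene of a Polycomb subunit on chromosome 17 (78.0 and 43.2), at WASH9P on chromosome 1 (70.8 and 77.5), at LOC100996660 on chromosome 17 (75.5 and 53.1), at a site 50.1 kb from APOD on chromosome 3 (74.7 and 44.6), and at MIR3180-1 and the pseudogene PKD1P3-NPIPA1 on chromosome 16 (69.9 and 57.5). WASH8P and WASH9P belong to a family near chromosome ends, and reads of such copies can be placed at more than 1 of them. The widest merged region, chr13:70716887-70738492, was a single OTX2high peak of 21606 bp, 608.4 kb from the nearest protein-coding gene, KLHL1. The next were SLC7A5P2 on chromosome 16 (11284 bp in OTX2high), MIR181A1HG (10120 bp) and MIR99AHG (9488 bp), the host gene of miR-99a and let-7c.

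Among the sites without any RefSeq gene within 10 kb, the highest fold enrichments were reached 14.8 kb from the dynein gene DYNC1H1 (chr14:101947122-101949738, 61.8 in OTX2high and 43.3 in OTX2low), 10.9 kb from NPTX1 (chr17:80453656-80455885, 58.4 and 43.0), 13.3 kb from TEF (chr22:41412654-41415553, 47.0 and 35.8) and 11.3 kb from CD34 (chr1:207867382-207869627, 46.9 and 41.8). These sites are just outside the 10 kb limit. Of the 4, the authors' deposited table calls the sites at DYNC1H1, TEF and CD34 higher in OTX2high, with log2 ratios of 0.45, 0.57 and 0.66, and the site at NPTX1 was in no differential region.

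Of the 4830 merged regions, 1743 (36.1%, Wilson 95% interval 34.7% to 37.4%) lay within 2000 bp of an end of a RefSeq non-coding gene or pseudogene, 778 (16.1%) lay in the body of one only, and 2309 (47.8%) touched no RefSeq gene. RefSeq gives no strand in the table used for this count, so both ends were taken. Peaks at gene ends were stronger: their median fold enrichment was 12.9 in OTX2high and 10.4 in OTX2low, against 6.33 and 6.32 where no gene was touched. By type, 986 regions were at a lncRNA, 678 at a pseudogene, 162 at a tRNA gene, 57 at a small nuclear RNA gene, 22 at a small nucleolar RNA gene, 18 at a ribosomal RNA gene and 9 at an immune receptor segment. A region can count under more than 1 type.

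Seen from the genes, tRNA genes were the type most often marked. Of 270 tRNA genes more than 10 kb from protein-coding genes, 195 had a member at an end in OTX2high (72.2%, Wilson 95% interval 66.6% to 77.2%) and 179 in OTX2low (66.3%, 60.5% to 71.7%), and all 179 were among the 195. On chromosome 6, which holds 133 of them, 104 and 90 were marked, and on chromosome 1 46 and 45 of 60. None of the 18 on chromosome 7 had a member in either list. Small nuclear RNA genes, many of them in tandem copies, had 45 and 44 of 88 marked (51.1% and 50.0%), and ribosomal RNA genes 5 and 12 of 23 (21.7% and 52.2%). The share was 10.4% and 12.0% of 492 microRNA genes, 9.28% and 7.76% of 8233 lncRNA genes, and 5.97% and 5.80% of 8381 pseudogenes. Neighbouring tRNA genes often share a peak and are not independent.

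**Figure D2:**
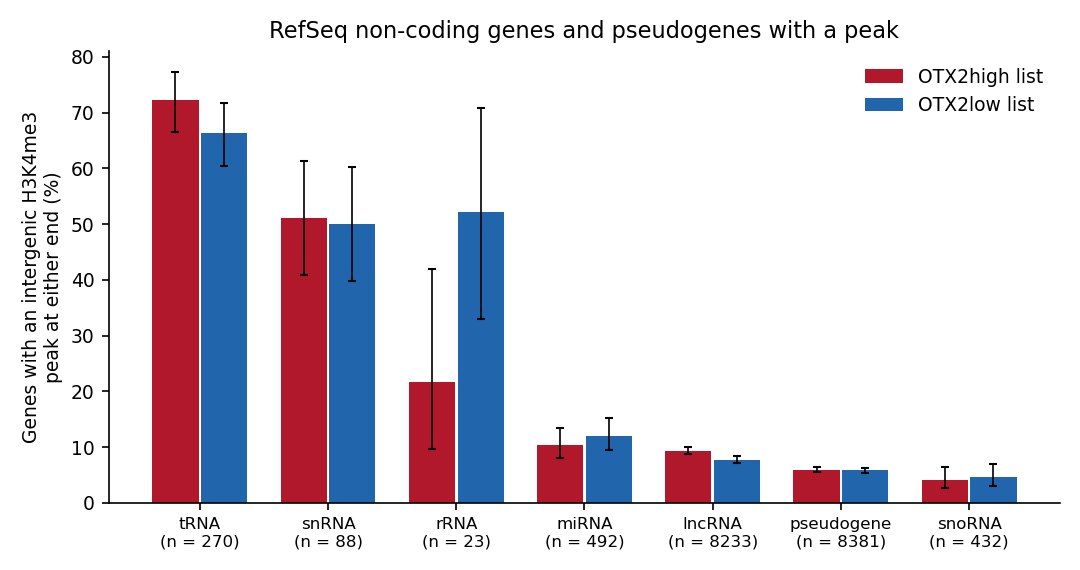
Bars give the percentage of RefSeq non-coding genes and pseudogenes, more than 10 kb from protein-coding genes, with an intergenic H3K4me3 peak within 2000 bp of either end, by gene type (number of genes below) and list. Error bars are Wilson 95% intervals over genes, and tRNA genes have the highest share in both lists.

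The widely expressed non-coding genes on a list chosen with earlier results known were nearly all marked. Of 6 that qualified, DANCR, SNHG5, MALAT1, MIR17HG and NORAD had members in both lists, and CYTOR had none. MALAT1, an abundant nuclear RNA, had fold enrichments of 33.5 in OTX2high and 24.98 in OTX2low (chr11:65497682-65507490). The authors' deposited table has 1807 and 1141 reads there, a log2 ratio of 0.66 (0.55 to 0.78). SNHG5, host of small nucleolar RNAs, had a log2 ratio of 0.60 (0.42 to 0.79) in the authors' deposited table, and DANCR and NORAD were in no differential region. Of the neural lncRNAs listed, the 5 that qualified (RMST, MEG3, MEG9, MIR99AHG and MIAT) had 0 members at the outer ends of their spans in either list. Inside MIR99AHG, however, members of both lists covered a RefSeq start, in OTX2high by a peak of 9488 bp.

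Fewer intergenic peaks than near-gene peaks were shared between the conditions. Of the OTX2high members, 63.8% (Wilson 95% interval 62.3% to 65.2%) were overlapped by any OTX2low peak, against 80.2% near genes. Of the OTX2low members, 84.1% (82.9% to 85.3%) were overlapped by an OTX2high peak, against 93.5% near genes. Within bands of fold enrichment the shares were close. For OTX2high peaks of 4 to 8 fold they were 35.9% and 32.3% near genes, for 8 to 20 fold 91.5% and 93.0%, and above that all 896 members were overlapped. For OTX2low peaks the shares were 71.5% and 76.6%, 98.7% and 99.2%, and all 625 members. The OTX2high library held more tags, and its list more weak peaks. The part of depth in these shares was not tested.

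Merged regions fell into 2462 with a fold enrichment of at least 4 in both lists, 1517 with no OTX2low peak, 547 with no OTX2high peak, and 304 with a weaker peak in the other list. The strongest member without a peak in the other list reached 16.9 fold in OTX2high and 14.7 fold in OTX2low. The latter lay at chr3:90161995-90165031, 679.9 kb from EPHA3, next to the centromere, and had 46.3 OTX2high and 468.8 OTX2low reads in the authors' deposited table, a log2 ratio of -3.34 (-3.77 to -2.94).

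Called differences were less frequent among intergenic regions than over all regions, and mostly higher in OTX2high. Of 4830 intergenic regions, 1131 (23.4%) were called higher in OTX2high and 308 (6.38%) higher in OTX2low, with 9 touched by regions of both directions. The shares over all 28033 regions were 38.2% and 5.38%. The whole table leans towards OTX2high, with a median log2 ratio of 0.61 over 21714 differential regions. With a fold minimum of 8, 622 and 71 regions were called, and without a minimum 1373 and 923, with a median log2 ratio of 0.74. After subtracting 0.61, the median over all differential regions, the ratio pointed to OTX2high at 1006 intergenic regions and to OTX2low at 419. These recentred ratios were not tested again. The median log2 ratio at called intergenic regions was 1.12 (95% interval of the median over regions 1.03 to 1.2), against 0.58 at called regions near genes. Reads were fewer at the former, with medians of 94.9 in OTX2high and 52.6 in OTX2low against 398.1 and 287.1, and a small difference needs more reads to be called.

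**Figure D3:**
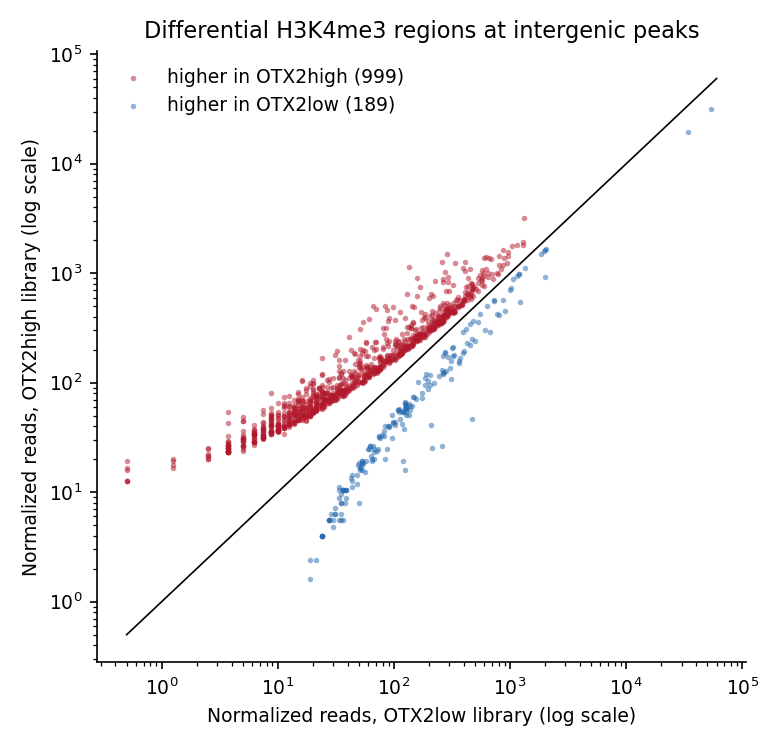
Each point is 1 differential region at intergenic H3K4me3 peaks, with its normalized reads in OTX2low (horizontal, log scale) and OTX2high (vertical, log scale); values of 0 are drawn at 0.5 and the line marks equality. Of 1188 regions, 999 lie above the line and 189 below it, and few lie near it at low reads.

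The share of intergenic regions called higher in OTX2high was larger among stronger peaks. At 4 to 8 fold 18.4% were higher in OTX2high and 8.51% in OTX2low, at 8 to 20 fold 23.5% and 3.34%, and at 20 fold or more 38.6% and 3.70%. Near genes the shares were 24.6% and 6.43% at 4 to 8 fold and 22.1% and 4.8% at 8 to 20 fold. The last band had 55.3% and 4.53% near genes, so the gap to intergenic regions was mainly in that band. The median log2 ratio of called intergenic regions went the other way with strength, at 1.63, 1.23 and 0.67 from the weakest to the strongest band. Regions 200 kb or more from a protein-coding gene were higher in OTX2high in 21.5% and in OTX2low in 9.34%, and those 10 to 50 kb away in 23.03% and 5.97%.

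The largest differences towards OTX2high, among those with at least 50 reads in the higher library, were at sites of several kinds. The authors' deposited table has 54.2 OTX2high and 3.76 OTX2low reads at a site 16.0 kb from IRF2BPL on chromosome 14, a log2 ratio of 3.85 (2.24 to 6.16). Inside LINC02981 on chromosome 7 (chr7:26428846-26429208) it is 3.18 (2.09 to 4.54) in the authors' deposited table. The T cell receptor alpha joining segments TRAJ47 to TRAJ49 carried a peak of 4315 bp and 39.5 fold in OTX2high and 2 peaks covering 1410 bp with up to 5.83 fold in OTX2low (chr14:22488816-22493130). Reads there in the authors' deposited table were 1145 and 134.1, a log2 ratio of 3.09 (2.81 to 3.39). At GLRA4, a glycine receptor subunit listed as a pseudogene on chromosome X, the peak was 4198 bp wide and 21.4 fold in OTX2high and 200 bp wide and 4.16 fold in OTX2low, and the authors' deposited table has 505.8 and 66.4 reads, a log2 ratio of 2.93 (2.52 to 3.36). A region in MAFTRR, a lncRNA on chromosome 16, 167.1 kb from MAF (chr16:79767804-79768698), had a log2 ratio of 2.89 (1.70 to 4.39) in the authors' deposited table, and a site 54.8 kb from HRH4 on chromosome 18 one of 2.81 (2.13 to 3.57). At GLRA4 and at the TRAJ segments both lists had a peak, while these other 4 regions had no OTX2low peak. Separate regions at the starts of MAFTRR and LINC02981 had members in both lists.

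The largest differences towards OTX2low were at sites without an OTX2high peak. After the site on chromosome 3 given above came a site 211.0 kb from NFIA, a gliogenic transcription factor, on chromosome 1, with 26.3 OTX2high and 257.0 OTX2low reads and a log2 ratio of -3.29 (-3.86 to -2.75) in the authors' deposited table. MIR217HG, the host of miR-217 on chromosome 2, followed with 25.5 and 210.6 reads and a log2 ratio of -3.04 (-3.64 to -2.49) in the authors' deposited table. LINC02859 on chromosome 11 had 15.9 and 125.4 reads and a log2 ratio of -2.97 (-3.75 to -2.27) in the authors' deposited table. A site on chromosome X 150.8 kb from CPXCR1 (-2.65) and a site on chromosome 19 108.4 kb from YJU2B (-2.64) completed the 6 in the authors' deposited table. The ratio of H3K4me3 over IgG reads in OTX2high was between 0.43 and 1.04 at these 6 sites and in OTX2low between 4.26 and 10.6.

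By gene type, tRNA genes leaned furthest towards OTX2high: 92 of 162 regions (56.8%) were called higher in OTX2high and 1 higher in OTX2low, where the shares over all regions were 38.2% and 5.38%. Their peaks were also stronger than most, and 67 of the 99 tRNA regions with 20 fold or more were called, against 287 of 819 other intergenic regions in that band. The tRNA clusters of chromosome 6 held 69 of the called regions in 4 stretches, which may include regions without a tRNA gene. In the widest, chr6:28474453-28983556, 31 of 40 regions were called higher in OTX2high, and their differential regions summed to 10433 OTX2high and 6066 OTX2low reads. In the next, chr6:27494680-27793685, 19 of 24 were called, with 7031 and 4218 reads. On chromosome 1, 4 neighbouring copies of a tandem repeat of tRNA genes were each touched by regions of both directions, and the authors' deposited table has log2 ratios between -0.31 and -0.29 in one part of each copy and between 0.32 and 0.43 in the other. At lncRNAs 27.99% of 986 regions were higher in OTX2high and 5.38% in OTX2low, at pseudogenes 17.6% and 11.5% of 678, and at ribosomal RNA genes 0 and 18 of 18.

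Neighbouring regions often changed together. With clusters set at 5 or more regions of 1 direction and gaps of at most 100 kb, a definition made after the values were seen, 171 of the 308 regions higher in OTX2low (55.5%) lay in 11 clusters, and 170 of the 1131 higher in OTX2high (15.0%) in 20. Without clusters 137 and 961 remained. Among the clusters higher in OTX2low were tandem repeats. On chromosome 10 all 30 regions at DUX4L pseudogenes (chr10:133664494-133761392) were called, with 2091 OTX2high and 4370 OTX2low reads, and on chromosome 4 19 of 20 at DUX4L and DBET (chr4:190065234-190093286), with 1686 and 3205. These pseudogenes are copies of the D4Z4 repeat that encodes DUX4, an embryonic transcription factor. On chromosome X 16 of 29 regions were called at DANT1 and DANT2 (chrX:115843622-115889203), transcripts at the macrosatellite DXZ4, with 188.2 and 592.9 reads. Chromosome 19 had a cluster of 25 regions at CYKILR and a cluster of 19 at LOC284412.

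In ribosomal DNA on chromosome 21, 14 regions (chr21:8204923-8260963) and 13 regions (chr21:8387974-8444103) lay in 1 differential region each, with 19695 and 34275 reads in the former and 31676 and 53557 in the latter. The ratio over IgG reads in these was low, at 1.88 and 2.57 and at 1.81 and 2.45 for OTX2high and OTX2low. At DUX4L on chromosome 10 the median ratio over IgG was 4.23 and 6.55, and at DANT1 and DANT2 2.38 and 6.04. Reads from copies of a repeat may be placed at any of them, so the regions of a cluster are not separate observations. The MIR9-1HG cluster, 6 regions in 2 differential regions, was the only one of the 11 with a fold enrichment above 20.

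Clusters higher in OTX2high, besides the tRNA genes, included the surroundings of OTX2 itself. All 5 intergenic regions in chr14:56820823-56892136, inside the antisense transcript OTX2-AS1, were called, none had an OTX2low peak, and their fold enrichments were between 4.24 and 7.33. They were thus members through the OTX2high list alone, and they lay in 3 differential regions. The differential regions there summed to 343.8 OTX2high and 91.5 OTX2low reads, with log2 ratios from 1.38 to 2.45. Around CHASERR, a lncRNA next to CHD2 on chromosome 15, 14 of 18 regions in chr15:92666968-92889198 were called, with 1332 and 451.3 reads. In MIR99AHG 8 of 11 regions were called (923.8 and 382.3 reads), and at the widest region on chromosome 13, with no RefSeq gene, 11 of 16 (2465 and 1203 reads). A pair of clusters on chromosome 3 held 12 called regions. Each cluster, also those above, was picked and bounded by called regions, so its share called is high by definition. Over all regions the shares were 38.2% higher in OTX2high and 5.38% higher in OTX2low.

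**Figure D4:**
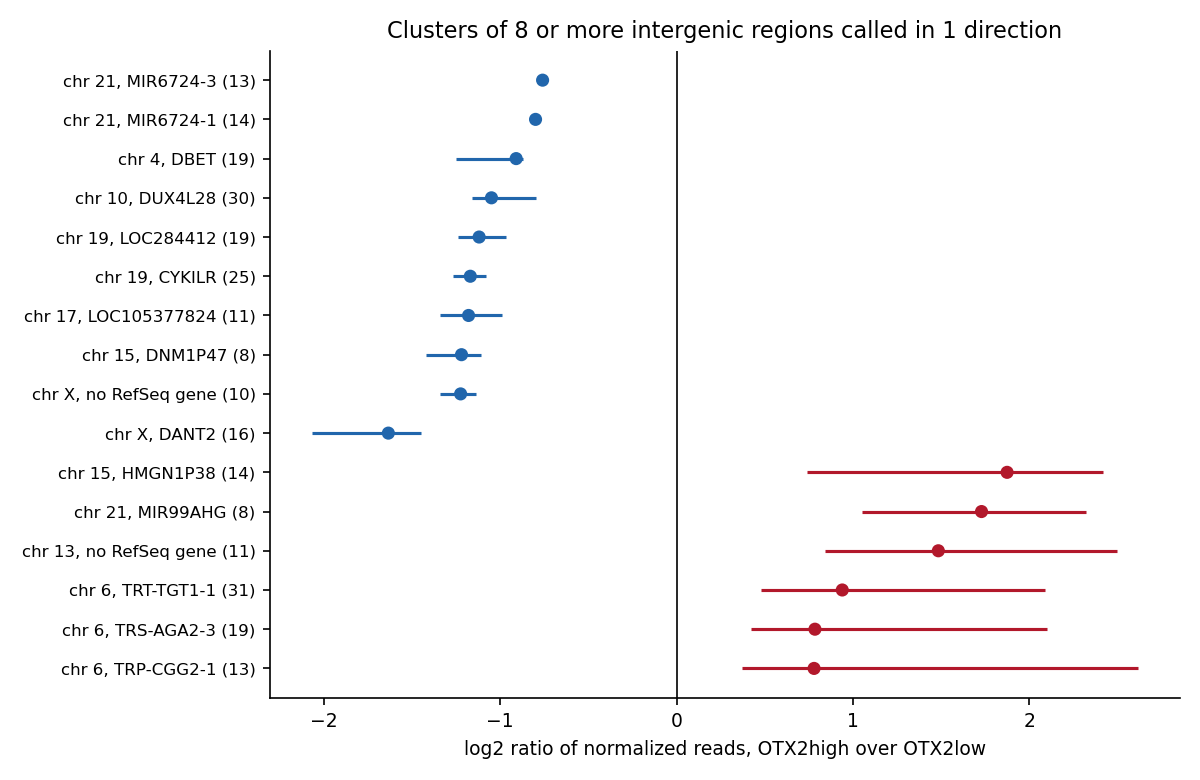
Dots give the median log2 ratio (OTX2high over OTX2low) of the differential regions in each cluster of 8 or more intergenic regions called in 1 direction, and lines run from the lowest to the highest ratio. Each row is named by chromosome and by the first RefSeq gene in the cluster, with the number of called regions, and the clusters higher in OTX2low lie between -2.07 and -0.76.

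H3K27me3, which the membership rule did not use, overlapped a larger share of intergenic than of near-gene peaks. Of the OTX2high members, 16.1% (Wilson 95% interval 15.1% to 17.3%) were overlapped by a peak of the list labelled OTX2high and 10.5% (9.66% to 11.5%) by one of the list labelled OTX2low, against 12.1% and 7.04% near genes. Of the OTX2low members the shares were 22.9% and 14.8%, against 13.3% and 7.65% near genes. The H3K27me3 shares moved with the overlap and fold required: with at least 50% overlap they were 10.4% and 1.58% of OTX2high members and 15.3% and 3.54% of OTX2low members, and without a fold minimum 17.7% of OTX2high and 24.4% of OTX2low members were overlapped by the list labelled OTX2low. In all, 540 merged regions (11.2%) had H3K27me3 peaks of both lists. Since neighbouring regions share H3K27me3 domains, these intervals are too narrow.

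The share with H3K27me3 in both lists differed with the direction of the H3K4me3 difference. It was 110 of 308 regions called higher in OTX2low (35.7%, Wilson 95% interval 30.6% to 41.2%) and 33 of 1131 called higher in OTX2high (2.92%, 2.09% to 4.07%). The 30 regions at DUX4L on chromosome 10 gave 21 of the former, the 19 on chromosome 4 gave 17, and the ribosomal DNA clusters 24. Of the other clusters higher in OTX2low, LOC284412 gave 7, those on chromosomes 15 and 17 gave 6 each, CYKILR 2 and one on chromosome X 1. Most of the 110 thus lay in clusters, whose regions are not separate observations, and the interval of 30.6% to 41.2% is too narrow. The H3K27me3 peaks in ribosomal DNA were weak, with fold enrichments between 1.84 and 3.99 at the microRNA genes there. Of regions with an OTX2high peak only, 2.64% had H3K27me3 in both lists, and of those with an OTX2low peak only, 10.2%. In the authors' H3K27me3 differential table, by the condition names of its header, 148 intergenic regions (3.06%) were touched by a region higher in OTX2high and 204 (4.22%) by one higher in OTX2low, where over all H3K4me3 regions these shares were 1.18% and 5.18%. Should the sample labels hold instead of this header, both directions swap.

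The highest H3K27me3 values at regions with both marks lay 21.998 kb from TMEM47 on chromosome X and 10.2 to 11.7 kb from the zinc finger gene ZFP37 on chromosome 9. At the former (chrX:34604734-34605077) the H3K27me3 fold enrichment was 10.4 in the list labelled OTX2high and 22.9 in that labelled OTX2low, beside H3K4me3 fold enrichments of 24.4 and 18.3. All peaks there were narrow, at 310 and 114 bp for H3K27me3 and 344 and 332 bp for H3K4me3. Whether both marks or an artefact of mapping gave them was not tested. At the latter, 3 regions within chr9:113066881-113069170 shared H3K27me3 peaks of 21.7 and 16.9 fold, 31575 and 6870 bp wide, beside H3K4me3 peaks of 3.61 to 7.59 fold. None of these 4 regions was in an H3K4me3 differential region.

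At lncRNA starts, CG content differed between promoters touched by members of both lists and those touched by members of 1 list alone. Alone means that no member of the other list touches the promoter, though a weaker peak can. Promoter sequences of 300 bases were at hand for 4965 of the 8233 lncRNA genes, 5627 promoters in all. The median number of CG dinucleotides was 22 in 363 promoters touched by members of both lists, 6 in 63 touched in OTX2high alone, 11 in 19 touched in OTX2low alone and 3 in 5164 without an H3K4me3 peak. The 145 promoters in regions called higher in OTX2high had a median of 18, and the 18 in regions called higher in OTX2low one of 31. Among the genes named above, the LINC02859 start (chr11:30734879-30735178, minus strand, higher in OTX2low) holds 3 CG dinucleotides. The MAFTRR start (chr16:79770483-79770782, minus strand) holds 34, and the authors' deposited table has 135.6 OTX2high and 66.4 OTX2low reads there, a log2 ratio of 1.03 (0.58 to 1.503). They are printed as a CG-poor and a CG-rich start, with capitals as above.
LINC02859: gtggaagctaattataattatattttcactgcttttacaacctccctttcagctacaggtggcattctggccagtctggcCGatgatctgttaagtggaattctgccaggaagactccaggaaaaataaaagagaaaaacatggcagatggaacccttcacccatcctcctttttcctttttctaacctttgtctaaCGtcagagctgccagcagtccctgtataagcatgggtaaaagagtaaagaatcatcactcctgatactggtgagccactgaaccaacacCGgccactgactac
MAFTRR: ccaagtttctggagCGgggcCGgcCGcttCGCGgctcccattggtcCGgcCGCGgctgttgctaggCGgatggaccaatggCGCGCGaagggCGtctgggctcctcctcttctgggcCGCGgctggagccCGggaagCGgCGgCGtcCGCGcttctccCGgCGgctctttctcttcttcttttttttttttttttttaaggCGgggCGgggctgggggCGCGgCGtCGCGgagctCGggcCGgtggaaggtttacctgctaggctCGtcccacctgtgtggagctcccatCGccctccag

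The sequence TAATCC, on either strand and with no other motif searched, was present in 14 of the 63 lncRNA promoters touched in OTX2high alone (22.2%, Wilson 95% interval 13.7% to 33.9%). It was present in 17 of 363 (4.68%, 2.94% to 7.37%) of those touched in both lists, in 1 of 19 touched in OTX2low alone, and in 487 of 5164 (9.43%) without a peak. Of all 35116 promoters in the RefSeq table, protein-coding genes included, 6.36% hold it. CG content moves with this share: among promoters with fewer than 10 CG dinucleotides it was 11 of 41 (26.8%, 15.7% to 41.9%) in OTX2high alone, 9 of 67 (13.4%, 7.23% to 23.6%) in both lists and 9.98% of 4599 without a peak. Without the FAM138 copies, which are near-identical, it was 11 of 60 (18.3%, 10.6% to 29.9%). In promoters of regions called higher in OTX2high it was 13 of 145 (8.97%). Some genes enter with more than 1 promoter, at starts a few bases apart, so these intervals are too narrow. A match is a letter pattern and no measured binding site. Printed as examples with a match are the LINC02044 start (chr3:113167682-113167981, minus strand) and the LINC01563 start (chr17:21075306-21075605, plus strand). LINC02044 had a peak of 4.51 fold in OTX2high and none in OTX2low. The intergenic region at LINC01563 had peaks of up to 19.9 fold in OTX2high and 7.50 fold in OTX2low. The log2 ratio there was 0.95 (0.71 to 1.21) in the authors' deposited table.
LINC02044: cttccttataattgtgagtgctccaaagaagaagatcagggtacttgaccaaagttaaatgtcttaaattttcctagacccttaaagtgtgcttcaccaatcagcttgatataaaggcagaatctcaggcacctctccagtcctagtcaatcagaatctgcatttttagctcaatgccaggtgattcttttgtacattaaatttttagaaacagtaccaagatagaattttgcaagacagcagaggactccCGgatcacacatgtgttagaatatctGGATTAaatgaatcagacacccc
LINC01563: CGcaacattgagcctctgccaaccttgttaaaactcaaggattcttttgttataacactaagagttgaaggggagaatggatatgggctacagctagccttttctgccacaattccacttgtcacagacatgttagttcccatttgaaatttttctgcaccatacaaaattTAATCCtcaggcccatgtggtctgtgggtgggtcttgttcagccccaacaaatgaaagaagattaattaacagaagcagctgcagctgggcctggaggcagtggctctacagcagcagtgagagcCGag

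**Figure D5:**
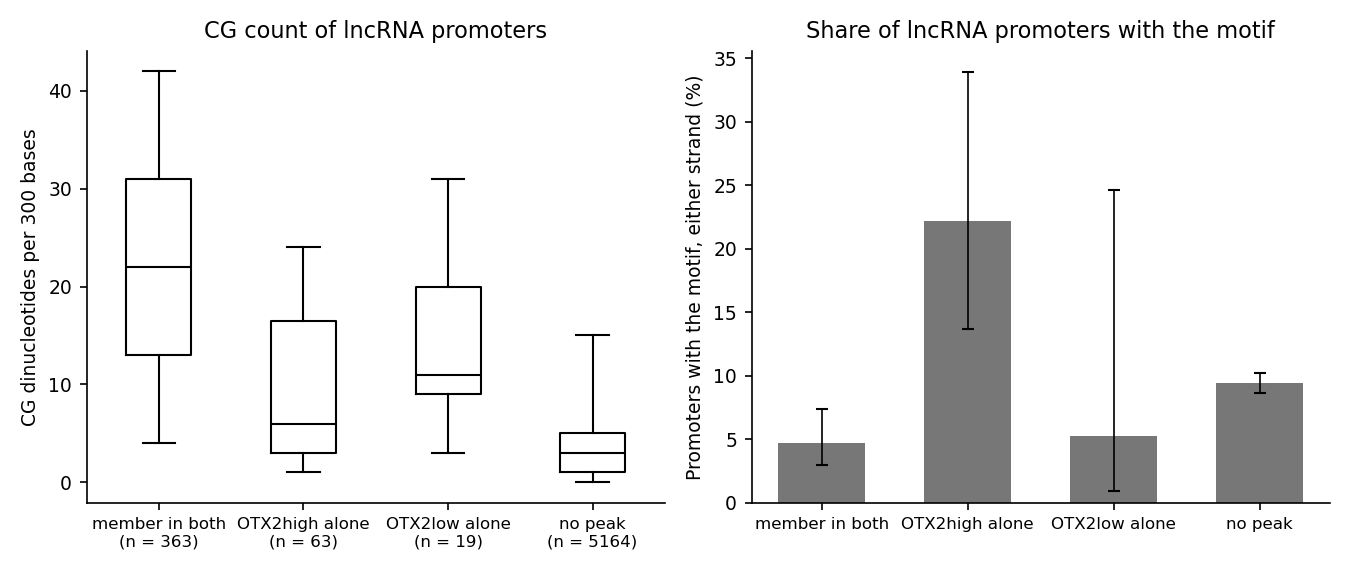
Left, the number of CG dinucleotides in 300 bases of lncRNA promoters by H3K4me3 class (line, median; box, quartiles; whiskers, 5th to 95th percentile), with medians of 22, 6, 11 and 3. Right, the percentage of these promoters with the sequence TAATCC on either strand and Wilson 95% intervals, 22.2% in the class touched by a member in OTX2high alone.

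Peak summits lay downstream of lncRNA starts more often than upstream. For the member nearest to a lncRNA start the median summit position was 155 bases downstream in OTX2high (426 promoters, 65.3% downstream) and 116 bases downstream in OTX2low (382 promoters, 63.4%), on the gene's strand.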

How the data were processed

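Chromatin of D283 tumorspheres was immunoprecipitated for H3K4me3 or H3K27me3, and 6 libraries were made, with 1 library per mark and condition and 2 IgG controls, per the labels. Samples were grouped by these labels. The submitters' processing notes name GRCh38, Bowtie2 2.3.3.1 and MACS2 2.1.1.20160309. Per the file headers, MACS2 called each peak list from a single ChIP library and a single IgG library, unpooled, keeping q-values up to 0.05, with fragment lengths of 189 bp (OTX2high) and 181 bp (OTX2low) for H3K4me3, which bound the peak widths. The authors' peak lists give a pileup signal at the summit, a fold enrichment (the ratio to local background), and p-values and q-values as -log10. They are values of single peaks. They served for filtering inside 1 list and for description, where values of both lists are set side by side. The libraries differ in depth, and fold enrichments were not adjusted for this.

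Per the file headers, diffReps 1.55.6 made the authors' differential tables by a G-test of OTX2high against OTX2low (H3K4me3 window 1000 bp, step 100 bp). The deposited columns hold scaled read signal, a ratio over IgG, a log2 ratio, a p-value and an adjusted p-value, and only regions past the authors' threshold are listed. All scaled reads were whole multiples of 1 value per library within 0.05 reads (100% of 21714 regions), so whole reads were recovered. A G-test on them called 21714 of 21714 regions, which is no check of the calls, since the table lists only regions that had passed it. The header names another genome build for its chromosome lengths, and 26 members beyond the last differential region of chromosomes 5, 17, 18 and 20 could not be called.

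Intergenic peaks were found with Python 3.11.15, pandas 2.3.3 and scipy 1.17.1 from RefSeq gene spans of GRCh38.p14. The gene table lists genes of unplaced and alternate scaffolds under a chromosome's name with scaffold coordinates, and 679 of these, 153 of them protein-coding, were left out. An overlap of 1 bp counted. Shares carry Wilson intervals and read ratios exact conditional (Clopper-Pearson) intervals at 95%. Reads without molecular identifiers are not independent molecules, so intervals cover counting error only. With 1 library per condition no test over replicates was possible, and p-values of the authors' table compare these libraries. Functions were tested on simulated data.

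The members, gene lists and TAATCC search were chosen with earlier results of these data known. Regions were named by rule: the 6 highest fold enrichments, the 6 largest log2 ratios in each direction with at least 50 scaled reads, the 4 widest, the 4 with the highest H3K27me3 fold in both lists, the 4 strongest without a RefSeq gene within 10 kb, and those at listed non-coding genes. Regions sharing 1 differential region counted once under the log2 rule, a choice made after the values were seen. The other microRNA genes, clusters, promoter examples and regions touched in both directions were chosen after the values were seen. Alternatives were other fold minimums, gene extensions, overlaps, read minimums and centring. Promoter and microRNA sequences are RefSeq's (GRCh38.p14), matched by gene ID. Of the differential tables' per-library columns, 8 (averages, and the H3K27me3 reads and ratios over IgG) were not used here, nor were the IgG libraries and the hotspot tables.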

Additional observations from a re-analysis of the deposited data

How the results depend on the processing

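Of 92 alternative values, leaving out the repeated G-test, 38 kept within the interval or within 1.5 times the count and 54 moved. Only the median log2 ratios carry a sign, and they stayed positive. In this paragraph, values come in the order OTX2high members, then OTX2low members, and H3K27me3 shares in the order list labelled OTX2high, list labelled OTX2low. Without a fold minimum, the shares overlapped by the other list were 56.0% and 76.3%, H3K27me3 overlapped 18.1% and 17.7%, and 24.7% and 24.4%, the median widths were 438 and 389 bp, 923 regions were higher in OTX2low, 29.9% of regions were at gene ends and the median log2 ratio was 0.74. With a minimum of 8 fold, 1964 and 1568 peaks were left, 95.4% and 99.2% overlapped, H3K27me3 at 18.7% and 11.7% of OTX2high members, median widths 1202.5 and 1097.5 bp, 622 regions higher in OTX2high and 71 in OTX2low, 50.9% at gene ends and a median log2 ratio of 0.84. Without the 10 kb extension there were 6758 and 5981 peaks, 67.4% and 87.3% overlapped, H3K27me3 at 20.1% and 12.7% of OTX2low members, 1929 regions higher in OTX2high and a median log2 ratio of 0.88. With 50 kb there were 2095 and 1746 peaks, 59.3% and 80.4% overlapped, an OTX2low median width of 452.5 bp, 595 and 168 called regions, 33.9% at gene ends and a median log2 ratio of 1.27. Requiring 50% overlap gave 52.4% and 80.5% shared, and H3K27me3 at 10.4% and 1.58%, and 15.3% and 3.54%. Counting only peaks of at least 4 fold in the other list gave 60.1% and 80.2%, and for H3K27me3 12.8% and 9.62%, and 17.3% and 12.8%. Windows of 5000 bp put 46.2% at gene ends. Leaving out the clusters, chosen after seeing the data, left 137 regions higher in OTX2low. Keeping scaffold genes, also chosen after seeing the data, gave 4172 and 3428 peaks. No paired analysis was possible because each condition has 1 library. The part of depth in the peaks found in 1 list only was not tested.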

Other observations

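Of 9 intergenic regions touched by differential regions of both directions, several show a shift along the region and not a change of one sign. At MIRLET7A1HG on chromosome 9 (chr9:94166121-94170668), the authors' deposited table has 208.2 reads in OTX2high and 315.9 in OTX2low over the first part, a log2 ratio of -0.60, and 819.3 and 457.6 reads over an overlapping, longer part, a log2 ratio of 0.84. At LINC00189 on chromosome 21 the log2 ratios are 0.48 and -0.76 in the authors' deposited table, and at the FAM86HP region on chromosome 3 they are 0.42 and -0.55. At the FAM86EP region on chromosome 4 they are 0.94 and -0.41. The other 5 are MIR17HG and the 4 tRNA repeat copies of chromosome 1. The regions were named after their values were seen.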
